A study of Rattus norvegicus with 8 samples.

Results

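Transcripts of 6 genes for subunits and a close partner of the transcription factor AP-1 were followed in the hippocampus of aged rats given an IGF-I gene vector or a placebo vector. The 6 were Fos (ENSRNOG00000008015), Fosb (ENSRNOG00000046667), Jun (ENSRNOG00000026293), Junb (ENSRNOG00000042838), Jund (ENSRNOG00000019568) and Atf3 (ENSRNOG00000003745). They were chosen by identifier, and all 6 of 6 were found among the 26405 gene IDs of the count table and passed the low count filter. All 8 rats were female Sprague-Dawley animals aged 28 months that received an adenoviral vector by intracerebroventricular injection. In the 4 rats of the IGF1 group the vector expressed rat IGF-I, a peptide growth factor, and in the 4 rats of the DsRed group it was the placebo vector without that gene, named for a red fluorescent protein. The right hippocampus of each rat gave 1 library. The promoter of the vector, its dose, the time between injection and dissection and the cells it reached are not given in the labels. The comparison asks which hippocampal transcripts differ between aged rats with and without the IGF-I vector.

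AP-1 is a dimer of basic leucine zipper proteins, most often a Fos family protein bound to a Jun family protein. Several of these genes are immediate early genes: in hippocampal neurons their transcription starts within minutes of synaptic activity, growth factor signalling or stress and soon falls again. Fos proteins need a Jun partner to bind DNA, whereas Jun proteins can also pair with each other. The level of each transcript therefore bears on which dimers can form, although protein was not measured here.

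The libraries held between 16347636 and 27377086 reads assigned to genes, and a further 30.7% to 32.9% of tabulated reads per library lay outside annotated genes, with the highest share in IGF1 replicate 1. That library stood apart: its mean Spearman correlation across genes with the rest was 0.986, where the rest ranged from 0.991 to 0.994. Fold changes of members are given with and without it. Neither table pairs Ensembl IDs with symbols, so the transcript of Igf1 and markers of hippocampal and other cell types were not analysed here. In bulk tissue, fewer cells of a type and less RNA per cell cannot be told apart.

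Promoter sequences from RefSeq (build GRCr8) are shown for Junb and Jund, as the windows available allowed. Both had lower levels in the IGF1 group, although neither passed after adjustment. The table also held a window for Fosb, which lay inside the annotated span of that gene and is not shown, and it held no window for Fos, Jun or Atf3. Each sequence is the 250 bases before the annotated start, on the strand of the gene, with motif matches on either strand in capitals. The Junb promoter lies at chr19:40080876-40081125 on the plus strand and the Jund promoter at chr16:18769772-18770021 on the minus strand.
Junb: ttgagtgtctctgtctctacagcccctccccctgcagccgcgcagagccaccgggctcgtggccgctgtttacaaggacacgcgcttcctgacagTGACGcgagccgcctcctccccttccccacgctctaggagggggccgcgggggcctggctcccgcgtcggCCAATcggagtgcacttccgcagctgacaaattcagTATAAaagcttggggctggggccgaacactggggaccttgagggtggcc
Jund: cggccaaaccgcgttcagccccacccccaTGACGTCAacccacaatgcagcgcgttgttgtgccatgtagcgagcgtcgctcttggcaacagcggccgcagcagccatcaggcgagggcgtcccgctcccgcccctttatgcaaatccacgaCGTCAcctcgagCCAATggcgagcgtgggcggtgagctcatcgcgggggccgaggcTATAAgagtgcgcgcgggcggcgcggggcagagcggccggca
The search covered TGACGTCA (the cAMP response element, CRE), its shorter form TGACG, which TGACGTCA contains, TGANTCA (the AP-1 site), the CArG box of serum response elements, CCAAT and TATAA. Jund held TGACGTCA from 221 to 214 bases before the start, a match found in 1.59% of the 33360 rat promoters of this length, and a separate TGACG on the opposite strand from 98 to 94. Junb held TGACG from 155 to 151 bases before the start. TGACG was found in 18.2% of all promoters. Both had CCAAT, at 85 to 81 bases in Junb and 86 to 82 in Jund, and TATAA on the sense strand, at 49 to 45 and 42 to 38. CCAAT was found in 34.0% and TATAA in 23.95% of all promoters. All such shares count a match on either strand anywhere in the window. Neither window held TGANTCA (6.35% of all promoters) or a CArG box (1.496%). The G and C content was 66.0% in Junb and 68.4% in Jund, against a median of 51.6%. The shares above were not adjusted for this. These matches are letters in the sequence and were not tested as sites in these tissues.

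None of the 6 transcripts passed the adjusted threshold of 0.05 by edgeR's quasi-likelihood test, and neither did any of the 14522 genes tested (0% called). Before adjustment 4 of the 6, Fos, Junb, Jund and Atf3, had lower levels in the IGF1 group at p under 0.05, whereas 3.05% of all genes were lower at that threshold and 6.60% passed it in either direction. In 2 of the 6, Fos and Junb, every IGF1 library lay below every DsRed library, against 1.97% of all genes. The median log2 fold change was -0.27 over the members and 0.0027 over all genes. The members were grouped with earlier results of these data known, so these counts describe them and do not test them as a set. Each of the 4 had a lower fitted level in the IGF1 group under all 3 other scalings of the libraries.

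**Figure D1:**
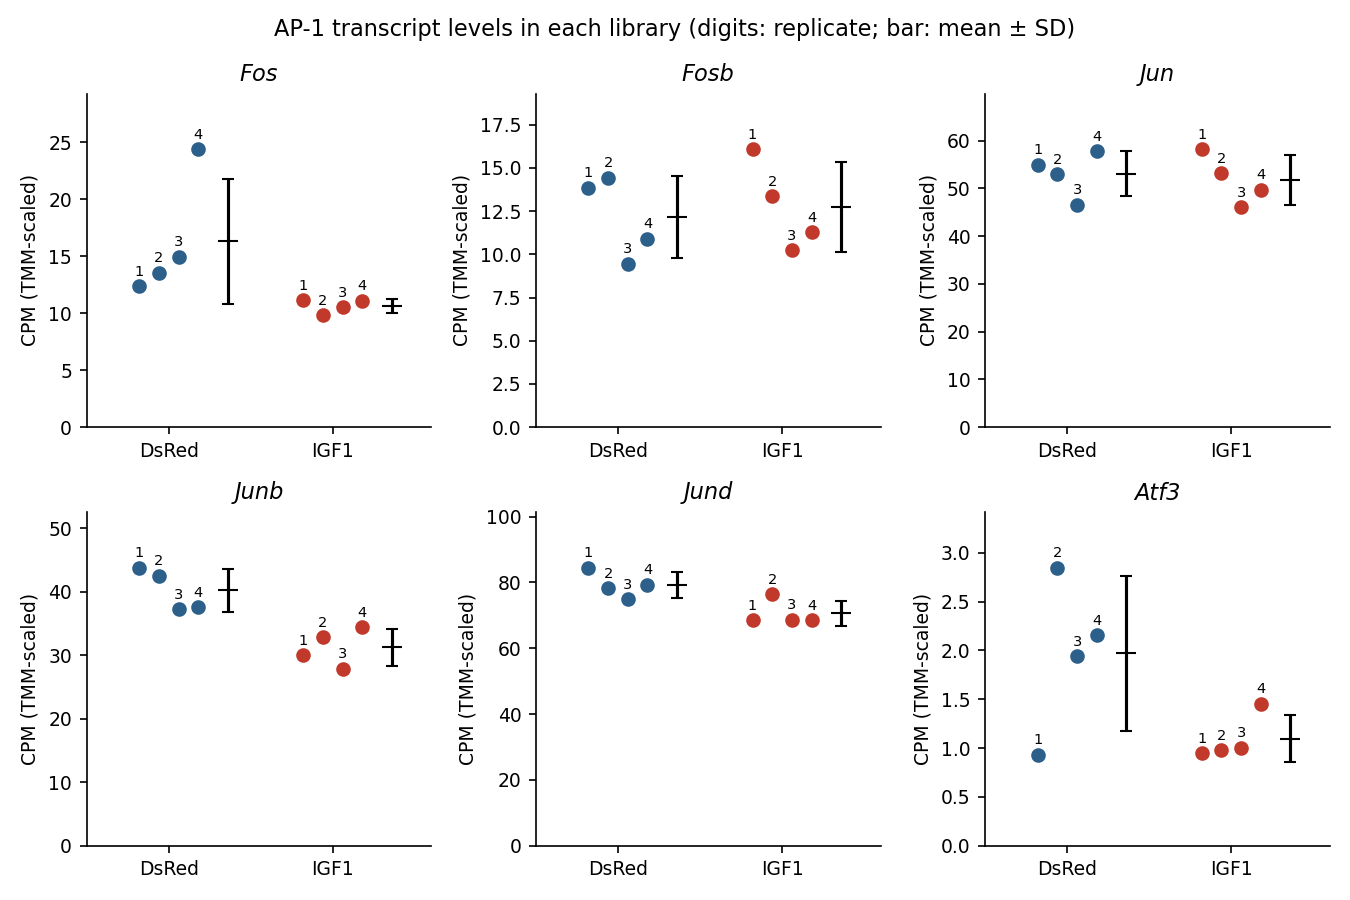
Level of each transcript in CPM (vertical axis from 0) in the 4 DsRed and the 4 IGF1 libraries; points are libraries with their replicate number, and bars show the mean and SD. Fos and Junb show no overlap between the groups, and the ranges of the groups overlap for the other 4.

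Of the Fos family, Fos was lower in every IGF1 library than in any DsRed library, although not past the adjusted threshold, and Fosb showed no detectable difference. Fos, the standard marker of recent neuronal activity, had 11.1, 9.81, 10.5 and 11.1 CPM in IGF1 replicates 1 to 4, where CPM is the read count scaled to library size. In DsRed replicates 1 to 4 it had 12.4, 13.6, 14.97 and 24.4 CPM. The IGF1 libraries lay close together and all below the DsRed libraries, whose highest value came from replicate 4. The mean was 10.6 ± 0.62 CPM with the IGF-I vector and 16.3 ± 5.49 CPM with placebo (SD, n = 4 each). The fitted level in the IGF1 group was 65.3% of that in the DsRed group, with a 95% interval of 48.5% to 88.0%. The log2 fold change was -0.61 (SE 0.19), and edgeR's quasi-likelihood test gave an unadjusted p of 0.00991 and an adjusted p of 0.743. The size of the difference rested on DsRed replicate 4: without it the log2 fold change was -0.36, with an unadjusted p of 0.00421 in the same edgeR fit. Without IGF1 replicate 1 it was -0.64. Fos was supported by 180 to 452 reads per library.

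Fosb encodes a Fos partner of Jun proteins and, by alternative splicing, the truncated and long-lived protein known as delta FosB, which gene counts cannot separate. Its level lay between 10.2 and 16.1 CPM in the IGF1 libraries and between 9.45 and 14.4 CPM in the DsRed libraries. The groups overlapped, with IGF1 replicate 1 the highest of the 8. The means were 12.7 ± 2.58 and 12.2 ± 2.38 CPM (SD, n = 4 each). The log2 fold change was 0.07 with a 95% interval of -0.31 to 0.46, and the edgeR quasi-likelihood fit gave an adjusted p of 0.939. It was -0.07 without IGF1 replicate 1 and -0.03 without DsRed replicate 3, so no direction can be given.

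Within the Jun family the level in the IGF1 group was lower for Junb and, by a smaller amount, for Jund, and not detectably different for Jun; none of the 3 passed after adjustment. Junb, an inducible member that can replace Jun in AP-1 dimers and activates many promoters less strongly, had 30.0, 32.8, 27.9 and 34.4 CPM in IGF1 replicates 1 to 4. DsRed replicates 1 to 4 had 43.8, 42.5, 37.2 and 37.5 CPM. The groups did not overlap, with a gap of 2.79 CPM between the highest IGF1 and the lowest DsRed library. The means were 31.3 ± 2.91 and 40.3 ± 3.38 CPM (SD, n = 4 each). The fitted level in the IGF1 group was 77.6% of that in the DsRed group (95% interval 68.2% to 88.3%). The log2 fold change was -0.37 (SE 0.083), with an unadjusted p of 0.00144 and an adjusted p of 0.743 by the same edgeR test. Junb ranked 17 among the 14522 genes by unadjusted p. Between 592 and 1104 reads per library supported it, and its log2 fold change was -0.35 without IGF1 replicate 1 and between -0.41 and -0.31 with any 1 library left out.

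Jund, the member that is expressed broadly and changes least on stimulation, had 68.5, 76.5, 68.7 and 68.6 CPM in IGF1 replicates 1 to 4. In DsRed replicates 1 to 4 it had 84.5, 78.3, 74.96 and 79.3 CPM. Of the IGF1 libraries 3 lay below all DsRed libraries, and replicate 2 lay above DsRed replicate 3. The means were 70.6 ± 3.95 and 79.3 ± 3.96 CPM (SD, n = 4 each). The level in the IGF1 group was 89.0% of that in the DsRed group (95% interval 81.6% to 97.2%), a log2 fold change of -0.17. The edgeR quasi-likelihood fit gave an unadjusted p of 0.0145 and an adjusted p of 0.743. Without IGF1 replicate 1 the log2 fold change was -0.15.

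Jun, the founding Jun protein, whose activity is raised by phosphorylation through JNK kinases, lay between 46.0 and 58.2 CPM in the IGF1 libraries. In the DsRed libraries it lay between 46.6 and 57.8 CPM, so the ranges nearly coincided. The means were 51.8 ± 5.19 and 53.1 ± 4.76 CPM (SD, n = 4 each). The log2 fold change was -0.03 with a 95% interval of -0.23 to 0.16, and its adjusted p was 0.947 by the edgeR quasi-likelihood fit. It was -0.09 without IGF1 replicate 1, 0.02 without IGF1 replicate 3 and 0.01 without DsRed replicate 4, so no direction can be given.

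Atf3, a stress-induced relative from the ATF family whose protein pairs with Jun proteins, was the least deeply covered member, with 15 to 74 reads per library. It had 0.95, 0.98, 1.005 and 1.45 CPM in IGF1 replicates 1 to 4 and 0.93, 2.85, 1.94 and 2.16 CPM in DsRed replicates 1 to 4. In the DsRed group 3 libraries lay above every IGF1 library, and DsRed replicate 1 lay below all of them. The means were 1.10 ± 0.24 and 1.97 ± 0.79 CPM (SD, n = 4 each). The log2 fold change was -0.88 (SE 0.31, 95% interval -1.58 to -0.18). By edgeR's quasi-likelihood test its unadjusted p was 0.0191 and its adjusted p 0.743. Counting error alone was 25.8% of the value at 15 reads and 11.6% at 74 reads. Without DsRed replicate 2 the log2 fold change was -0.64 and its unadjusted p 0.0750 in the same edgeR fit. Without IGF1 replicate 1 the log2 fold change was -0.81, and on the log2(value + 1) scale of the deposited signal, which compresses low values, it was -0.47.

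**Figure D2:**
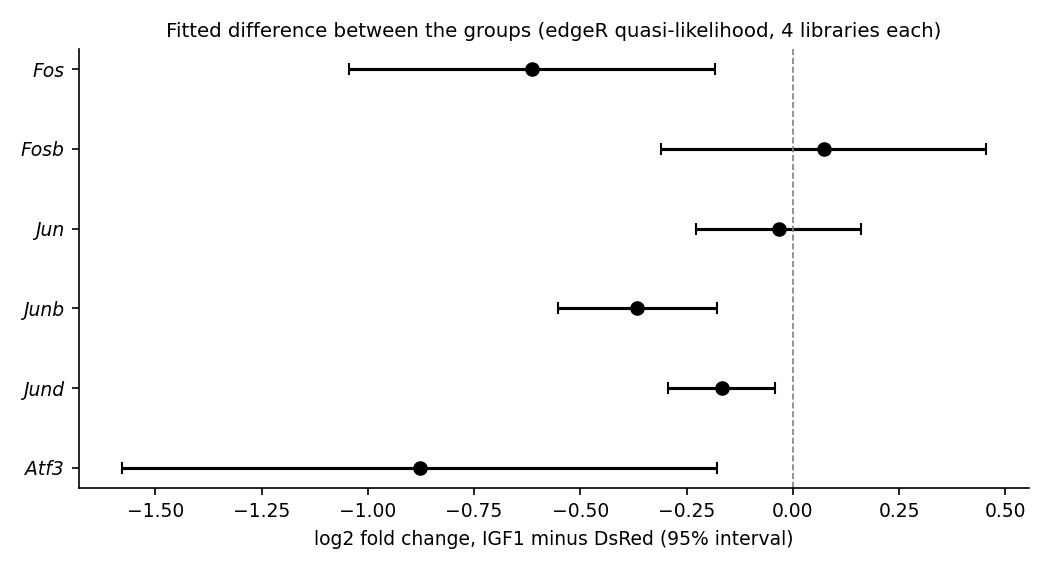
Log2 fold change of each member, IGF1 minus DsRed (horizontal axis), with its 95% interval from the edgeR quasi-likelihood fit to 4 libraries per group. The intervals of Fos, Junb, Jund and Atf3 lie below 0 before any adjustment for the 14522 genes tested, and those of Fosb and Jun include 0.

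Exact two-sided permutation of the 8 libraries gave p of 0.0286 for Fos and for Junb, the smallest value that 4 against 4 allow. It gave 0.0571 for Jund, 0.143 for Atf3 and 0.714 for both Fosb and Jun. These p-values are unadjusted. Other tests gave no adjusted p under 0.05 for any member, the smallest being 0.112 for Junb in DESeq2.

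**Figure D3:**
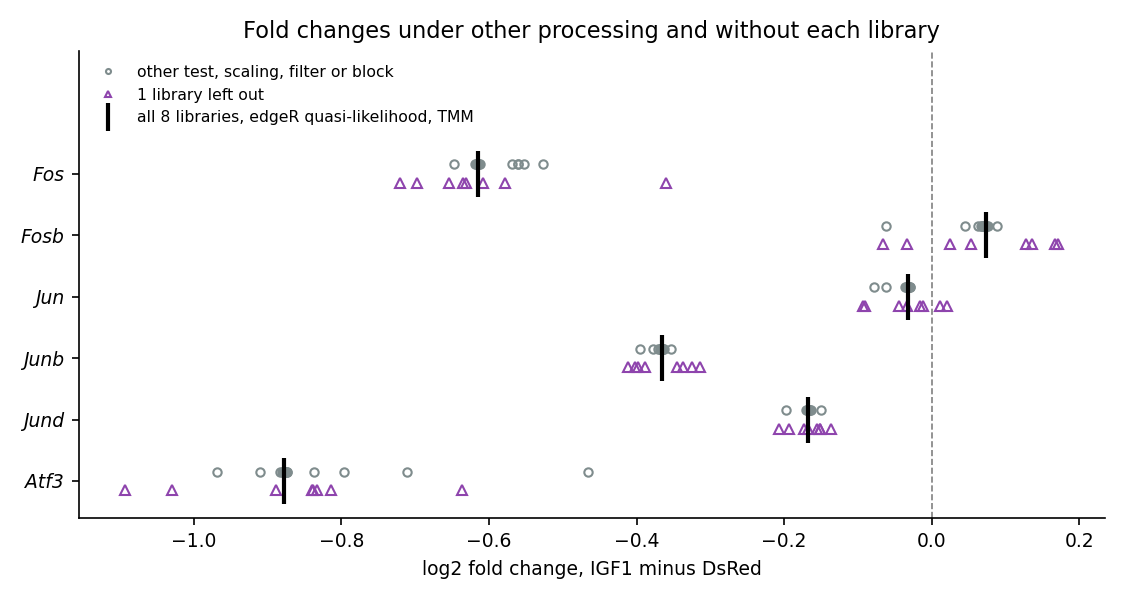
Log2 fold change of each member, IGF1 minus DsRed (horizontal axis), with all 8 libraries (black bar), under other tests, scalings, filters or a replicate block (circles) and with 1 library left out (triangles). Fos, Junb, Jund and Atf3 stay below 0 in all 88 alternative values, Fos moves to -0.36 without DsRed replicate 4, and Fosb and Jun cross 0.

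Whether members differed from each other in their change was examined through ratios of their reads within a library, which no scaling of libraries affects. A ratio of reads is not a ratio of transcripts, since longer transcripts give more reads, but its change between groups is free of length. For each 100 Junb reads there were 167 ± 20.5 Jun reads with the IGF-I vector and 132 ± 14.5 with placebo (SD, n = 4 each). The log2 difference was 0.33 (SE 0.12). Its exact permutation p, two-sided, was 0.0571, or 0.286 when adjusted by Benjamini-Hochberg over the 15 pairs of members. For each 100 Jun reads there were 20.7 ± 2.22 Fos reads with the IGF-I vector and 30.6 ± 8.71 with placebo, with the same exact p of 0.0571 and adjusted p of 0.286. For each 100 Junb reads there were 41.0 ± 9.06 Fosb reads with the IGF-I vector and 30.0 ± 3.67 with placebo. That ratio also had an exact permutation p of 0.0571 and an adjusted p of 0.286. For each 100 Jund reads there were 44.3 ± 4.12 Junb reads with the IGF-I vector and 50.7 ± 2.99 with placebo, with an exact p of 0.0857 and an adjusted p of 0.306. The groups overlapped in all 15 ratios and none passed. With 4 libraries per group the exact p of a ratio cannot go below 0.0286, so no pair could pass alone after adjustment over the 15. The adjusted test therefore cannot decide whether the change of Junb differed from that of Jun, and no difference was shown. The fitted intervals of the 2 transcripts differ in whether they include 0, which is not a test of that difference.

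The members differed widely in how much they varied from rat to rat within a group. The pooled within-group SD of log2 CPM was 0.08 for Jund, 0.13 for Junb and 0.14 for Jun, and it was 0.29 for Fosb, 0.31 for Fos and 0.49 for Atf3. The median over all genes tested was 0.14. Jund varied more than only 17.8% of genes, Fosb more than 81.3%, Fos more than 84.1% and Atf3 more than 94.7%. Spread depends on abundance, and edgeR's estimates allow for this. The biological coefficient of variation was 18.8% for Fos and 16.8% for Fosb, where the trend for genes of their abundance gave 11.9% and 12.2%. It was 6.69% for Jund, where the trend gave 9.23%. For Jun, Junb and Atf3 it was 9.35%, 8.90% and 27.5%, against trends of 9.68%, 10.2% and 24.5%. The spread of Fos came from the DsRed group, with an SD of 0.43 against 0.08 in the IGF1 group, and the pooled value was 0.11 without DsRed replicate 4. That of Atf3 was 0.27 without DsRed replicate 1, below Fos and Fosb in the same libraries. The order of neighbouring members was not tested.

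**Figure D4:**
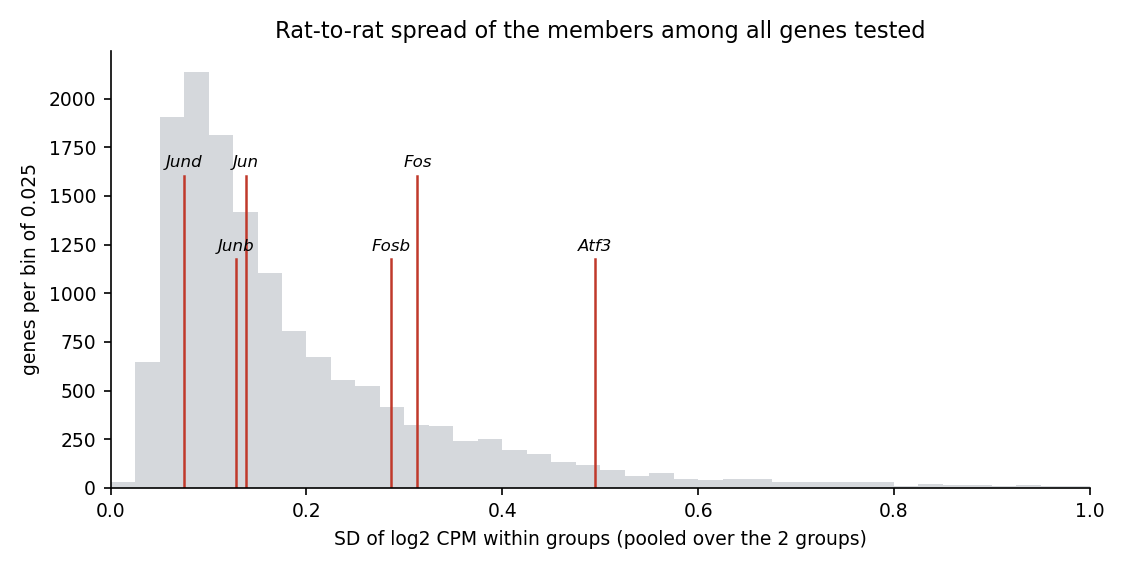
Number of genes (vertical axis) by within-group SD of log2 CPM (horizontal axis) for all genes tested, with the 6 members as vertical lines whose height has no meaning. Jund lies at 0.08, Junb and Jun lie near the median of 0.14, and Fosb, Fos and Atf3 lie in the right tail at 0.29, 0.31 and 0.49, the last of which was 0.27 without DsRed replicate 1.

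Levels of the members were then compared with each other across the 8 libraries, 15 pairs in all. Junb and Jund varied together most closely, with a Pearson r of 0.84 (exact permutation p of 0.0118, 0.177 after Benjamini-Hochberg adjustment) and a Spearman rho of 0.81 (exact permutation p of 0.0218, adjusted 0.327). Without IGF1 replicate 3 and DsRed replicate 1, the libraries farthest from the Junb median, r was 0.70. With the group means subtracted it was 0.52, with an exact permutation p of 0.219, so part of the pooled value lay between the groups. Fosb and Jun gave an r of 0.72 (exact permutation p of 0.0546, adjusted 0.273) and a rho of 0.67 (exact permutation p of 0.0831, adjusted 0.415). Without IGF1 replicate 1 and DsRed replicate 3 their r was 0.44, and with the group means subtracted it was 0.75, with an exact permutation p of 0.0590. With the means of same-numbered libraries subtracted (replicate block) r was 0.07. That step keeps the difference between the groups, so its r does not measure rat-to-rat variation alone. DsRed replicate 4 lay off the relation of Fosb to Jun. Without it r was 0.97 with an adjusted exact permutation p of 0.0268, the only pair to pass when that library was left out. Each of the 8 libraries was left out in turn, and this p is adjusted over the 15 pairs but not over those fits. Fos and Fosb gave an r of -0.33 (exact permutation p of 0.469, adjusted 0.671) and a rho of -0.14 (exact permutation p of 0.752, adjusted 0.806). Without DsRed replicates 3 and 4 their r was 0.39. Fos and Atf3 gave an r of 0.66 (exact permutation p of 0.0502, adjusted 0.273). Their rho was 0.55 (exact permutation p of 0.171, adjusted 0.641). With the group means subtracted the r of Fos and Atf3 was 0.38, with an exact permutation p of 0.521. No pair passed the adjusted threshold with all 8 libraries.

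**Figure D5:**
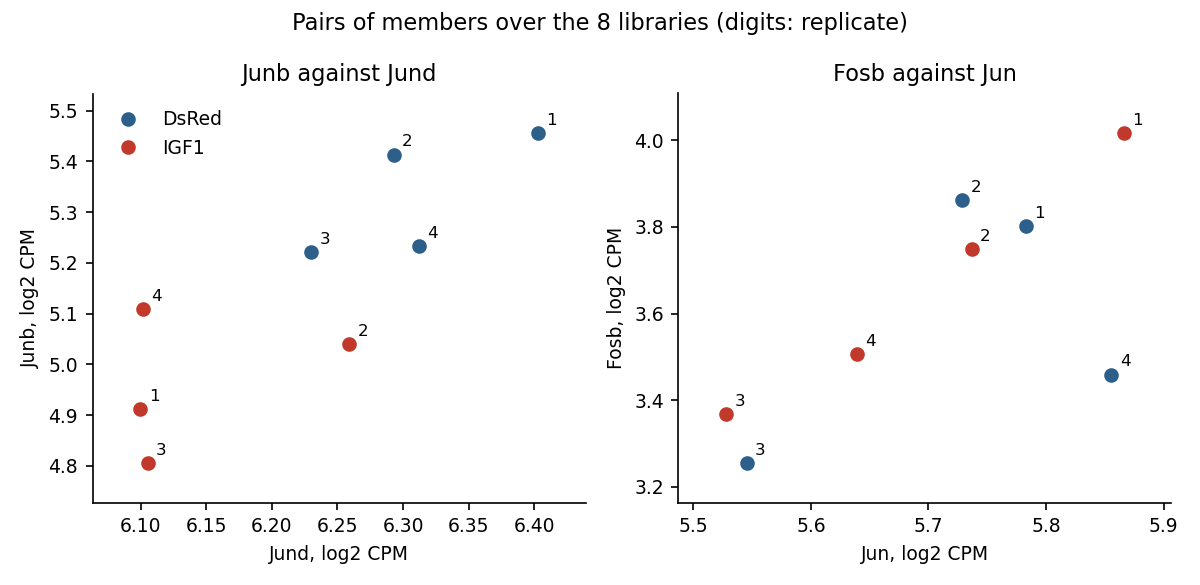
Log2 CPM of Junb against Jund (left) and of Fosb against Jun (right) in the 8 libraries, with replicate numbers beside the points. On the left the DsRed libraries lie to the upper right of most IGF1 libraries (r = 0.84), and on the right the groups mix and DsRed replicate 4 lies below the other libraries of similar Jun level (r = 0.72).

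Among 12692 other gene IDs whose mean log2 CPM was 1 or more, the closest to Fos over the 8 libraries was ENSRNOG00000015615, with a Pearson r of 0.95 and a Spearman rho of 0.76. The next was ENSRNOG00000007649, with an r of 0.94 and a rho of 0.81. The files do not pair these IDs with symbols, and they were picked for their r, so no p is given. Without DsRed replicates 3 and 4, the libraries farthest from the Fos median, r fell to 0.47 for the former and 0.78 for the latter. The likeness of the former therefore rested largely on those libraries.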

How the data were processed

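Per the submitters' processing notes, CASAVA 1.8.2, STAR, HTSeq and edgeR were used, without the role of each, and no source names the genome build, annotation or strand setting. The deposited table of raw read counts holds 26405 Ensembl IDs and 3 summary rows, which entered neither the library sizes nor the tests. The other deposited table, a normalised signal on a linear scale for 13595 IDs, served only for alternatives on log2(value + 1) and log2(value + 0.1) scales. Sample titles gave the groups and the replicate numbers, and the labels name separate rats. Symbols of the 6 members came from the definition of the set, and 0 Ensembl IDs matched the rat gene table, so the pathway and cell type lists planned by symbol were not used. The members and lists were chosen with earlier results of these data known.

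IDs were kept by filterByExpr (minimum count 10, minimum total 15), scaled by TMM and tested over all 14522 genes with glmQLFit and glmQLFTest in edgeR 4.0.16 (R 4.3.3), two-sided, adjusted by Benjamini-Hochberg at a threshold of 0.05. Standard errors are the fold change over the root of F, and 95% intervals use the total degrees of freedom. CPM are counts over the TMM-scaled library size, and log2 CPM has a prior count of 2. Correlations over all 8 libraries with nothing subtracted used all 40320 pairings. With group means subtracted the 576 pairings within groups were used, and with 1 library left out all pairings of the remaining libraries. The rule for named genes was the 6 members and the 2 IDs most like Fos. The chi-square between library pairs, per degree of freedom, was 5.74 to 54.1, so no library was counted as a repeat. The fits were tested on simulated data. Alternatives used DESeq2 1.42.0, limma 3.58.1 and other edgeR settings. The counts at an unadjusted p, the non-overlap counts, the exact tests of single members and the ratios were added after seeing the data. Intervals and counting errors are those of these libraries only, and the reads carry no molecular identifiers.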

Additional observations from a re-analysis of the deposited data

Results flagged for a closer look

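The level of each member was searched within each group for a library far from the rest, 12 sets of 4 libraries in all, and chance gives about 1 in 20 such sets. Jund in IGF1 replicate 2, at 76.5 CPM, lay far above the other IGF1 libraries at 68.5 to 68.7 CPM. It is the library that made the groups overlap for Jund. Atf3 in IGF1 replicate 4, at 1.45 CPM, lay above the other IGF1 libraries at 0.95 to 1.005 CPM, on 25 reads. Fos in DsRed replicate 4, at 24.4 CPM, was below the limit; its gap to the next library was 0.783 of the group's range.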

How the results depend on the processing

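No member passed an adjusted p of 0.05 under any of the 22 alternatives. Of 132 alternative fold changes of members, 127 kept their direction. Fosb turned to -0.062 in limma voom with quality weights and lay between -0.066 and 0.171 with 1 library left out, and Jun lay between -0.093 and 0.0205. Over the same alternatives the adjusted p in edgeR, DESeq2 and limma lay between 0.495 and 0.913 for Fos, 0.112 and 0.913 for Junb, 0.503 and 0.969 for Jund, and 0.503 and 0.915 for Atf3. Atf3 moved to -0.47 on the log2(value + 1) scale, which compresses low values. All 4 lower members had an unadjusted p under 0.05 in every alternative except the fit without DsRed replicate 2, which left 3. Over all genes, edgeR's likelihood ratio and exact tests called 11 each, DESeq2 13 and the fit without DsRed replicate 2 called 1, none of them a member. Leaving out 1 library gave 0 to 1 calls. The cause was not tested. At an unadjusted p under 0.05 the quasi-likelihood test listed 958 genes.

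A replicate block (replicate number) in the edgeR fit called 0 members and 0 genes, and the log2 fold changes were -0.57 for Fos and -0.37 for Junb. Same-numbered libraries had deviations correlated at 0.055, 0.126, 0.244 and 0.134. For every IGF1 library this was its highest correlation with any DsRed library, and differently numbered pairs went down to -0.328. Seen from the DsRed side, replicates 1 and 2 had their highest correlation with IGF1 replicates 4 and 3. Whether libraries of the same number share structure was not tested. The labels name separate rats, and the main fits did not pair them. Removing the means of same-numbered libraries (replicate block) keeps the difference between the groups. Of 210 alternative correlations of pairs, 20 changed sign or fell to 0. For each removal of means, scaling or rank correlation below, only those pairs are given. After removing the means of same-numbered libraries r was -0.60 for Fosb and Junb, -0.80 for Fosb and Jund and 0.085 for Fosb and Atf3. For Jun, r was -0.076 with Junb and 0.30 with Atf3. After removing group means it was -0.48 for Fos and Junb, -0.28 for Fos and Jund, -0.058 for Junb and Atf3 and -0.54 for Jund and Atf3. With total counts only, Jun and Atf3 gave 0.10. Spearman's rho of Fosb and Jund was 0. Leaving out 1 library gave 0 to 1 pairs past the threshold, namely Fosb and Jun without DsRed replicate 4, and Junb and Atf3 without DsRed replicate 1 (r of 0.93, adjusted exact permutation p of 0.0387). It gave r of -0.20 to 0.50 for Fos and Jun, -0.13 to 0.53 for Fosb and Junb, -0.0204 to 0.57 for Fosb and Jund, -0.14 to 0.58 for Jun and Junb and -0.28 to 0.17 for Jun and Atf3. Depth limits Atf3 most. With 4 libraries per group, exact tests of single members and of ratios cannot go below 0.0286.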
